A study of Mus musculus with 4 samples.

Results

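The genes described here are 10 genes of fetal skeletal muscle, measured in liver RNA of mouse fetuses at 14.5 days post coitum (dpc). They were chosen by name, as 4 muscle regulatory factors (Myod1, Myog, Myf5 and Myf6) and 6 contractile or energy genes (Acta1, Ckm, Myh3, Myh8, Tnnt3 and Mylpf), out of 22911 genes named on the array. A probe counted as theirs if its transcript belonged to one of these genes in RefSeq, which gave 15 of 56605 non-control probes. Female C57BL/6J mice received a control diet (CD), with 4.3% of energy as fat, 19.2% as protein and 67.3% as carbohydrate, or a high-fat diet (HFD), with 60% as fat, 20% as protein and 20% as carbohydrate, while pregnant. All 4 arrays, 2 per diet, held fetal liver RNA, and no treatment other than the dam's diet and no altered allele is given. The fetuses are taken here as female, while the paper's methods state no sex for the arrayed fetuses. The labels call the 2 samples of a diet biological replicates, and the number of fetuses and dams behind each array is not given in the sources used here. Below, CD livers and HFD livers stand for the arrays of a diet and not for single fetuses.

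Skeletal muscle arises from somites and is no part of the liver. Myf5 and Myod1 commit progenitors to the muscle lineage, Myog drives their differentiation into fibers, and Myf6 acts in differentiation and in mature fibers. These factors are basic helix-loop-helix proteins that bind the E-box, a short DNA motif, in the promoters and enhancers of muscle genes. Fetal fibers build their sarcomeres with an embryonic (Myh3) and a perinatal (Myh8) myosin heavy chain, the skeletal alpha-actin Acta1, the fast regulatory light chain Mylpf and the fast troponin T Tnnt3, and buffer their ATP with the muscle creatine kinase Ckm.

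The promoter sequences of a regulatory factor and 3 contractile genes are shown because the levels of the contractile genes varied together over the arrays and those of the factor did so only in part. Each is the 250 bases before the annotated start of the gene, from RefSeq on GRCm38.p6, in the direction of the gene, with every E-box (CANNTG) in capitals. RefSeq promoters were matched for 7 of the 10 genes. Myod1, Myf6 and Tnnt3 are named only.
Myog, chr1:134289754-134290003, + strand: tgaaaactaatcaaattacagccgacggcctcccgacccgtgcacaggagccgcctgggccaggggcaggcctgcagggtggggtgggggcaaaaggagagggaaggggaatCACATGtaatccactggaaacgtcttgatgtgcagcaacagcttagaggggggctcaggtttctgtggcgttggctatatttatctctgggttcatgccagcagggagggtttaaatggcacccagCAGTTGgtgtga
Acta1, chr8:123894776-123895025, - strand: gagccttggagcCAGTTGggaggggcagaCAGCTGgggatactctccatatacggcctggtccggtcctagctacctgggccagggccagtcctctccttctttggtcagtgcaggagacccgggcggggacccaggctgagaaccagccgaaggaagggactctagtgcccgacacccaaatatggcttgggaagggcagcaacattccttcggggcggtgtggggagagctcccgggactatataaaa
Myh3, chr11:67078050-67078299, + strand: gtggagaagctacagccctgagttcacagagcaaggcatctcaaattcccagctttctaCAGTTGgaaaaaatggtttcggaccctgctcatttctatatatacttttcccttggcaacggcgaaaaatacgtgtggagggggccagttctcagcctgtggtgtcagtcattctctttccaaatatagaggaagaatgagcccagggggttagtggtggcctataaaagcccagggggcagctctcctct
Mylpf, chr7:127211358-127211607, + strand: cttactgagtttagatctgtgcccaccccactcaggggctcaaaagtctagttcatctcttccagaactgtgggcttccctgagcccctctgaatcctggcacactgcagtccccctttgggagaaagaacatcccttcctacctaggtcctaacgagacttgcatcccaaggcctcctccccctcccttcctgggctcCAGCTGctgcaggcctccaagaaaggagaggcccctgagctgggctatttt

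Of the 7 windows, 6 held an E-box, and the window of Myf5 held none. On either strand CANNTG occurred in 66.2% of all 32851 windows of this length, so most promoters hold one. The form CAGCTG occurred in 3 of the 7 windows (Ckm, Mylpf and Acta1), against 13.0% of all windows. Acta1 and Myh3 each held TATAAA, with its first base at -7 and -29 from the start, and Myh8 held it on the opposite strand at -96, where it overlaps a match to the MEF2 motif that begins at -99. TATAAA on either strand was found in 12.4% of all windows and the MEF2 motif in 2.92%. A CArG box, the motif of serum response factor, began at -73 in Acta1 and was present in 1.47% of all windows. Such matches describe the letters of a window and not the binding of a factor. On the chromosomes, Myf5 and Myf6 are neighbours on chromosome 10 with 0 annotated genes between them, and Myh3 and Myh8 lie on chromosome 11 with 7 annotated genes between them, among them Myh1, Myh2 and Myh4.

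Transcripts of 9 of the 10 muscle genes were clearly measured in fetal liver RNA, and for none of them did the difference between the diets stand out from the spread between arrays. A level here is the log2 of the background-subtracted intensity minus the 75th percentile of the array, so that 1 unit is a factor of 2. Of the 15 probes, 12 were well above background on all 4 arrays by the flag of the image analysis. The Myf5 probe was well above background on none. A second, dim probe of Myh3 was well above background on 3 arrays, all but CD replicate 2, and that of Myh8 on CD replicate 1 only. No member spot carried an outlier flag, and no spot of any array was saturated. The lowest intensity called well above background lay between 14.9 and 17.5 on the 4 arrays.

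**Figure D1:**
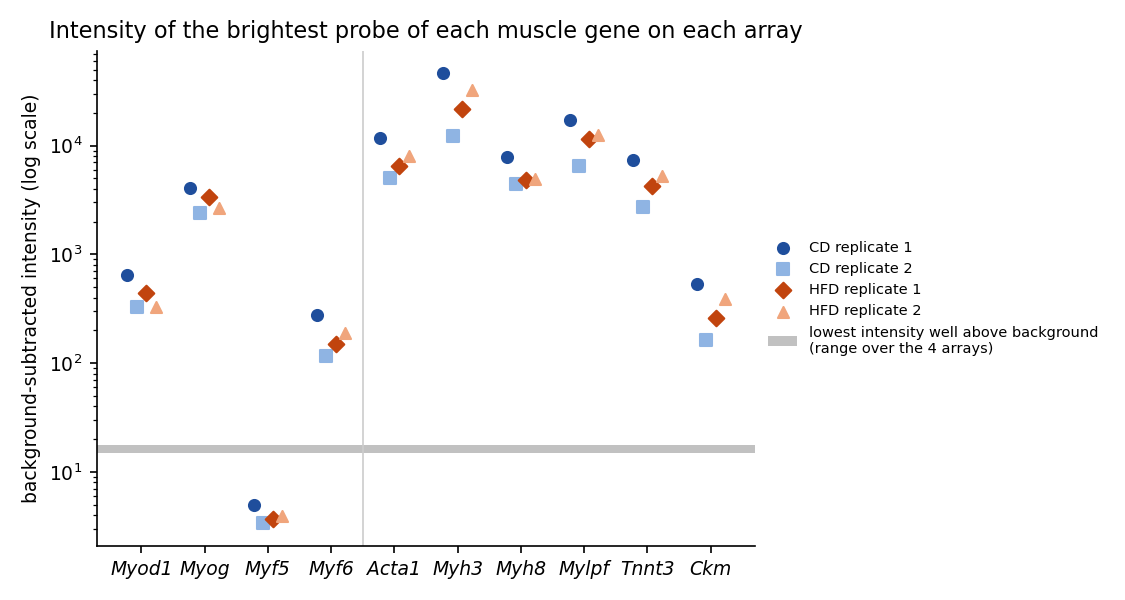
Background-subtracted intensity (log axis) of the brightest probe of each of the 10 muscle genes on each of the 4 arrays, with the lowest intensity well above background as a grey band. The 9 genes other than Myf5 lie above the band on every array and Myf5 lies under it, whereas heights of different probes cannot be compared with each other.

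The arrays themselves differed in intensity and in transcripts of other tissues. Median intensity was 120.5 and 70.2 for CD and 99.8 and 97.0 for HFD, and between 65.4% and 70.0% of non-control spots were well above background. The 4 hybridisations shared 1 slide and 1 scan. All 12 hepatoblast and hepatocyte markers were well above background on all 4 arrays. So were all 10 neuron and all 8 trophoblast markers, so this flag alone does not bear out the label of fetal liver. Levels of Alb were 8.14 and 9.06 in CD livers against 8.53 and 8.54 in HFD livers. Those of Afp were 8.32 and 8.82 in CD livers against 8.49 and 8.63 in HFD livers. Of 8 trophoblast markers, 7 were lower in the HFD group at an unadjusted p under 0.05 and 2-fold in the limma fit, against 107 of 18344 tested genes. The median log2 difference of the list was -3.98, and Gcm1 went the other way (0.55). Tpbpa, Tpbpb, Prl8a9, Prl2b1, Cts3 and Psg21 are among the genes the paper lists as most lowered on these same arrays, so this list is no separate evidence. The part of these placental transcripts in the values of the muscle genes was not tested.

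Among the measured regulatory factors, Myog had the steadiest levels. Its levels were 1.91 and 1.76 in CD livers against 1.81 and 1.56 in HFD livers, a range of 1.27-fold over all 4. The groups overlapped, and the difference between HFD and CD was -0.15 (SE 0.18). Its intensity was between 153 and 245 times the lowest intensity well above background of the same array.

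Myod1, which converts other cell types to muscle when forced on, lay lower in both HFD livers than in either CD liver. Its levels were -0.72 and -1.12 in CD livers against -1.15 and -1.48 in HFD livers. CD replicate 2 and HFD replicate 1 were closer to each other than the 2 arrays of either diet were. The log2 difference of -0.39 (SE 0.23) had an unadjusted p of 0.163 and an adjusted p of 1.00 in the limma fit.

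Myf6 levels were -1.96 and -2.60 in CD livers against -2.71 and -2.28 in HFD livers. The CD arrays enclosed 1 HFD array, and the difference of -0.22 (SE 0.30) was smaller than the difference between the CD arrays, -0.64. Myf5 intensities were 4.97, 3.37, 3.66 and 3.94 on CD replicates 1 and 2 and HFD replicates 1 and 2. All 4 were well under the lowest intensity well above background, so for Myf5 no difference can be given.

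For 5 of the 6 contractile genes, all but Myh8, the difference between the diets was smaller than that between the 2 arrays of either diet. Myh3, the embryonic myosin heavy chain, had levels of 5.43 and 4.12 in CD livers against 4.48 and 5.16 in HFD livers. Its intensities were 46229.7, 12217.5, 21588 and 32403 in the same order. The HFD arrays lay between the CD arrays, which were 2.48-fold apart, and the difference between the diets was 0.04 (SE 0.52). The dim second probe of Myh3 had the same order of arrays, with levels of -4.59, -6.80, -5.66 and -5.06 on CD replicates 1 and 2 and HFD replicates 1 and 2.

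Mylpf, whose protein binds the neck of the fast myosin heavy chains, had levels of 3.99 and 3.21 in CD livers against 3.57 and 3.79 in HFD livers. Again the CD arrays enclosed the HFD arrays, and the difference between the diets was 0.08 (SE 0.31). The second Mylpf probe ran in another order. Its levels were -1.43 and -0.98 in CD livers against -0.87 and -0.90 in HFD livers, and its difference was 0.32 (SE 0.22), with both HFD arrays above both CD arrays. Which transcripts each of these probes reads was not tested.

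Tnnt3, which ties troponin to tropomyosin in fast fibers, was measured by 3 probes with the same order of arrays. The brightest had levels of 2.77 and 1.94 in CD livers against 2.12 and 2.53 in HFD livers. CD replicate 1 was highest and CD replicate 2 lowest with all 3 probes, and the differences between the diets were -0.03 (SE 0.35), 0.07 (SE 0.36) and 0.04 (SE 0.41), from the brightest probe to the dimmest. Ckm levels were -1.00 and -2.12 in CD livers against -1.91 and -1.23 in HFD livers. Its CD arrays were 2.16-fold apart and enclosed the HFD arrays, and the difference between the diets was -0.01 (SE 0.46).

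Acta1 levels were 3.46 and 2.83 in CD livers against 2.75 and 3.13 in HFD livers. HFD replicate 1 was slightly under CD replicate 2, so that the groups overlapped, and the difference was -0.21 (SE 0.29). Actin genes are close in sequence, and since no probe sequences were used here, signal from Actc1 or Acta2 on the Acta1 probe was not tested. The same holds among the myosin heavy chains.

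Myh8, the perinatal myosin heavy chain, gave the smallest p of all member probes. Its levels were 2.88 and 2.67 in CD livers against 2.32 and 2.43 in HFD livers. Both HFD arrays were under both CD arrays, and here alone among the contractile genes CD replicate 2 was above both HFD arrays. The log2 difference was -0.40 (SE 0.18), with a 95% interval from -0.87 to 0.07, an unadjusted p of 0.0790 and an adjusted p of 1.00 in the limma fit. The dim second probe of Myh8, with levels of -5.54 and -6.41 in CD livers against -6.37 and -6.23 in HFD livers, had overlapping groups and allows no bound, as 3 of its values were not well above background.

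**Figure D2:**
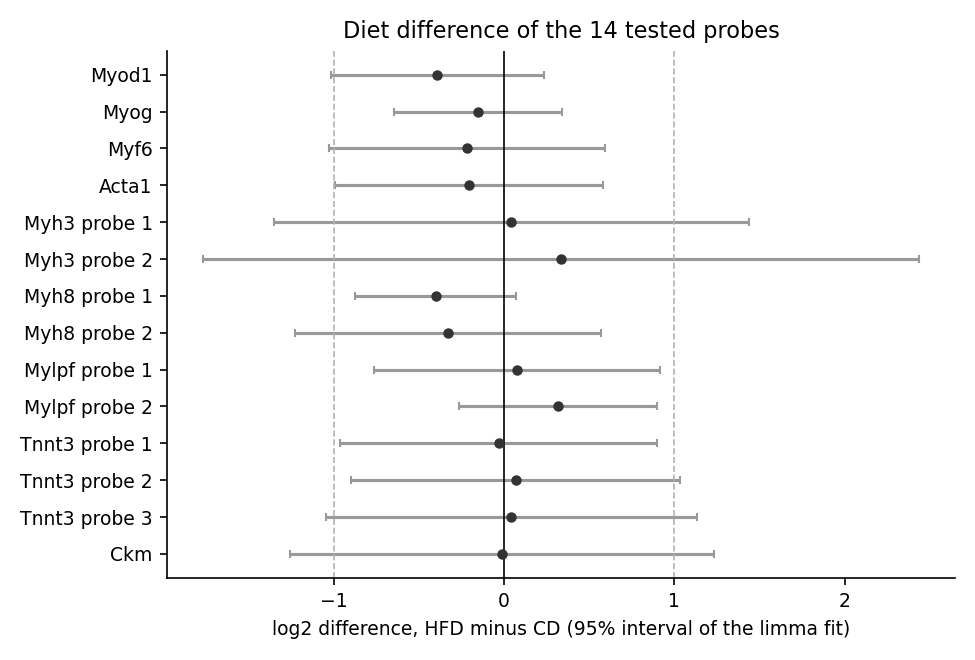
Log2 difference between HFD and CD for the 14 tested probes of the muscle genes, as points, with the 95% interval of the limma fit as bars and dashed lines at a factor of 2 in either direction. All 14 intervals include 0, and those of Myog and of the first Myh8 probe are among the narrow ones.

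The maternal diet was compared with limma over 41614 probes, 14 of the 15 member probes among them, and none of the 14 was called. The Myf5 probe was under the 20th percentile of intensity and was not tested. After adjustment for all probes, 0% of the probes tested had a p under 0.05. At an unadjusted p under 0.05 and a fold change of 2, 0.284% of probes were higher and 0.526% lower in the HFD group, and 0 of 14 member probes passed in either direction. At an unadjusted p under 0.05 alone, 0 member probes passed with limma and 0 with the methods' t-test, against 1372 and 2089 of all probes. The 95% intervals exclude a fold change of 2 in both directions for Myog (-0.64 to 0.34), the first Myh8 probe, Acta1 (-0.99 to 0.58), the brightest Tnnt3 probe (-0.96 to 0.90) and both Mylpf probes (-0.76 to 0.92 and -0.27 to 0.90). A 2-fold difference was not excluded for Myh3 (-1.35 to 1.44), Ckm (-1.26 to 1.23), Myf6 (-1.03 to 0.59) and Myod1 (-1.02 to 0.23). The same held for the second Tnnt3 probe (-0.90 to 1.04), the dimmest Tnnt3 probe (-1.05 to 1.13) and the dim probes of Myh3 (-1.77 to 2.44) and Myh8 (-1.23 to 0.57). With 2 arrays per diet the smallest p an exact permutation test allows is 0.33, and all p-values here measure the spread between these arrays.

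Taking the brightest probe of each gene, the median log2 difference of the 9 tested members was -0.15, against 0.04 over 18344 tested genes. Both HFD arrays were below both CD arrays for 2 of the 9, Myod1 and Myh8, and above them for 0. Over all tested genes, 10.2% were below and 22.9% above in this sense. This count rested on single arrays. Without CD replicate 2, all 9 members lay lower on both HFD arrays than on the remaining CD array, as 31.9% of all tested genes did, and their median was -0.52. That count of 9 only restates that CD replicate 1 was the highest array for all 9, as described below. Without CD replicate 1, 4 of 9 were higher and 2 lower, against 44.8% and 38.7% of all genes, and the median was 0.11. Without HFD replicate 1 and without HFD replicate 2 the counts of lower members were 3 and 4, against 18.3% and 17.3% of all genes, and the medians 0.00 and -0.30. In bulk RNA, fewer muscle cells and less muscle RNA per cell cannot be told apart.

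The clearest pattern of the muscle genes was a difference between the 2 CD arrays. By the brightest probe of each gene, CD replicate 1 was the highest of the 4 arrays for 9 of 9 tested members, against 26.9% of all tested genes. All 9 were lower on CD replicate 2 than on CD replicate 1, with a median log2 difference of -0.64, while 44.7% of all genes were lower and their median was 0.06. The second Mylpf probe, well above background on all 4 arrays, ran the other way. Its level was lowest on CD replicate 1 (-1.43) and higher on CD replicate 2 (-0.98). For 2 members, Myh3 and Ckm, CD replicate 2 was at least 2-fold under CD replicate 1, which held for 5.66% of all genes. On the HFD arrays, 7 of 9 members were higher on replicate 2 than on replicate 1, against 42.7% of all genes, with a median log2 difference of 0.37. These are differences between single arrays and have no test.

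**Figure D3:**
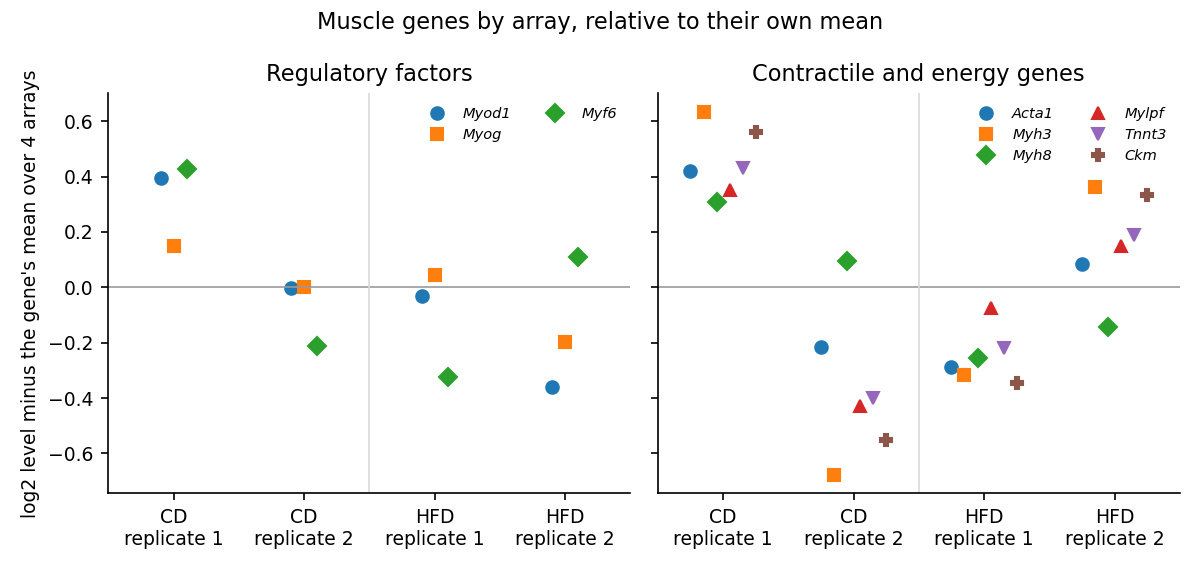
Log2 level of the 9 detected muscle genes on each array minus the mean of the gene over the 4 arrays, for the regulatory factors (left) and the contractile and energy genes (right). Each gene, by its brightest probe, is highest on CD replicate 1, and on HFD replicate 2 the contractile genes lie above their values on HFD replicate 1 while Myod1 and Myog lie below theirs.

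Within the members, Myod1 and Myog ran opposite to the contractile genes between the HFD arrays. From HFD replicate 1 to HFD replicate 2 the log2 level differed by 0.68 for Myh3, 0.68 for Ckm, 0.41 for Tnnt3, 0.37 for Acta1, 0.22 for Mylpf and 0.11 for Myh8, and by 0.43 for Myf6. For Myod1 and Myog it differed by -0.33 and -0.24. All 6 contractile genes were thus higher on HFD replicate 2, with a median of 0.39, while Myf6 alone of the 3 measured factors was. Between the CD arrays, the contractile genes had a median difference of -0.80 and the 3 measured factors of -0.40, with values that overlapped gene by gene. Myh3, Ckm, Tnnt3 and Mylpf had CD replicate 1 highest and CD replicate 2 lowest, an order that 16.5% of all genes had.

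Other genes of muscle, from 4 lists of 82 genes that hold no member, shared most of these differences between the arrays. Of the 79 tested, 62 were highest on CD replicate 1, 65 were lower on CD replicate 2 than on CD replicate 1 and 59 were higher on HFD replicate 2 than on its partner, HFD replicate 1. Their medians were -0.56 between the CD arrays and 0.22 between the HFD arrays. The median difference between the diets was -0.11, none passed after adjustment with limma, and at an unadjusted p under 0.05, 5 were lower and 0 higher, against 1.54% and 1.33% of all genes. None of the 5 reached a fold change of 2.

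Of the other sarcomere genes, 33 of 35 were tested and 28 were highest on CD replicate 1. Levels of Myl1, a fast myosin light chain, were 4.78 and 4.11 in CD livers against 4.33 and 4.58 in HFD livers. Tnnt1, the slow troponin T, had levels of 4.91 and 4.08 in CD livers against 4.22 and 4.56 in HFD livers, and Tnnc2, the fast troponin C, had 4.74 and 3.85, and 4.24 and 4.57. In all 3 the CD arrays enclosed the HFD arrays, as in Myh3 and Mylpf. Of the adult fast myosin heavy chains, Myh1 and Myh4 ran the other way between both pairs of arrays, and Myh2, not well above background on 1 array, ran the other way between the CD arrays only (0.24, against 0.81 between the HFD arrays). For Myh1 the log2 level of the second array minus the first was 0.83 in CD and -1.86 in HFD livers, and for Myh4 it was 0.54 and -1.02. The differences between the diets were -0.42 (SE 0.70) for Myh1 and 0.02 (SE 0.42) for Myh4. At an unadjusted p under 0.05, Mybph (-0.52), a myosin-binding protein gene, was lower in the HFD group.

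Genes of excitation, calcium handling and the neuromuscular synapse had a median difference of -0.08 between the diets, with 21 of 22 tested. Sln, a small inhibitor of the calcium pump, had levels of 2.66 and 1.99 in CD livers against 2.20 and 2.49 in HFD livers. Casq2, a calcium store protein, had 1.85 and 0.86, and 1.35 and 1.63. Jsrp1, a protein of the junctional sarcoplasmic reticulum, had 1.15 and 0.35, and 0.73 and 0.97. All 3 repeated the order of Myh3. At an unadjusted p under 0.05, Atp2a1 (-0.52), the fast-fiber calcium pump, and Chrnb1 (-0.70), a subunit of the acetylcholine receptor, were lower in the HFD group.

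The 13 genes of muscle progenitors and cell fusion had a median of -0.36 between the CD arrays and of -0.06 between the HFD arrays, where 5 of 13 were higher on replicate 2, a share near the 42.7% of all genes. Mef2c, a partner of the regulatory factors that other tissues use as well, had levels of 2.20 and 2.04 in CD livers against 1.96 and 2.01 in HFD livers. Vgll2, a cofactor of muscle genes, had 1.52 and 1.31, and 1.04 and 0.97. The fusion protein gene Mymx had 1.40 and 1.10, and 1.12 and 1.07. Like Myod1, all 3 were highest on CD replicate 1, and Mef2c and Vgll2 lay lower in both HFD livers than in either CD liver. The list had 6 of 13 genes in that position, against the 10.2% of all genes given above, and a median difference of -0.40 between the diets. Markers of some other tissues moved with it: cartilage and tendon markers had a median of -0.48, with 5 of 8 in that position and 2 past an unadjusted p of 0.05 and 2-fold, and neuron markers had -0.46, with 4 of 10 in that position. Most kidney and gonad markers went the other way, with a median of 1.08. Six2 (-0.06) and Pax2 (-0.44) of that list did not. Of the 8 tested kidney and gonad markers, 4 were higher in both HFD livers than in either CD liver, against 22.9% of all genes. Both cutoffs were passed by 3. Cdh16, Cyp11a1 and Dazl of that list are also among the genes the paper lists as most raised on these arrays. The part of these tissues in the values of the progenitor list was not tested. Only Cdh15 (-0.57), the cadherin of myoblasts, had an unadjusted p under 0.05. Pax7 and the upstream factor Six4 had differences between the HFD arrays of -0.08 and -0.36.

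The 12 genes of muscle energy supply, several of which other tissues express, had no common direction between the CD arrays, where 6 were lower and 6 higher on replicate 2 (median -0.10). The median between the HFD arrays was 0.30. Pfkm, a phosphofructokinase that liver and blood cells also make, had levels of 3.32 and 3.78 in CD livers against 3.45 and 3.42 in HFD livers, with CD replicate 1 the lowest. The muscle enolase Eno3 had 2.32 and 1.76, and 1.96 and 2.21, and the muscle phosphoglycerate mutase Pgam2 had 2.09 and 1.56, and 1.50 and 1.91. The last pair were highest on CD replicate 1, as Ckm was.

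**Figure D4:**
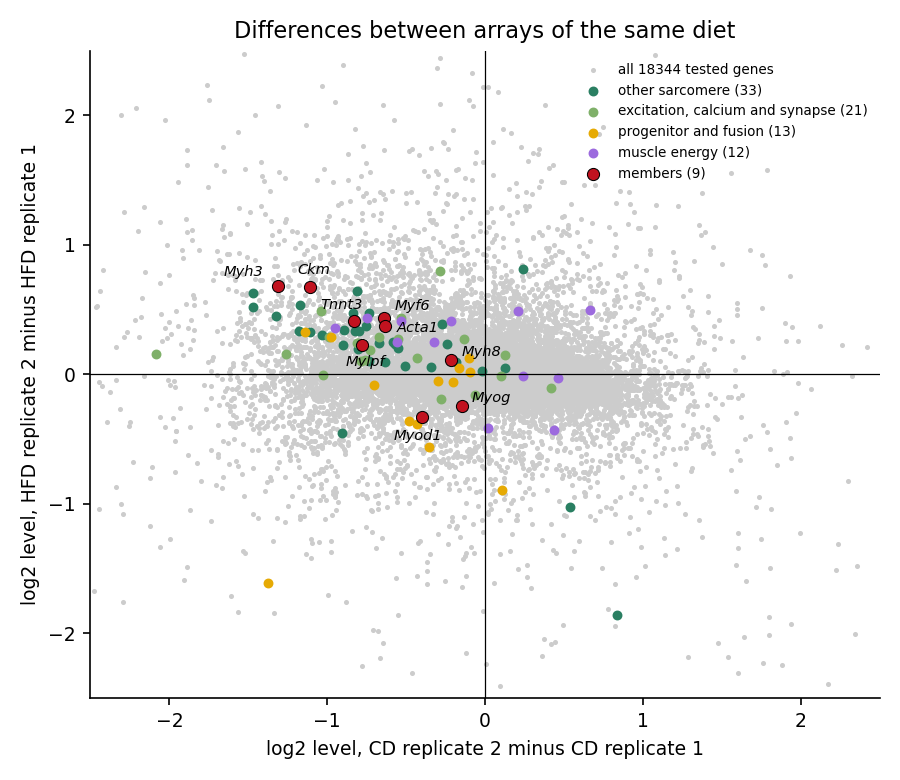
Log2 difference between the 2 CD arrays (horizontal) and between the 2 HFD arrays (vertical) for the brightest probe of all 18344 tested genes (grey, of which 78 lie outside the axes), the genes of 4 muscle lists and the 9 detected members. The 6 contractile members lie at the upper left, with a lower level on CD replicate 2 and a higher one on HFD replicate 2, while Myod1 and Myog lie at the lower left.

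Markers of other cell types moved over the same arrays. All 9 smooth muscle markers were lower on CD replicate 2 than on CD replicate 1 and higher on HFD replicate 2 than on its partner, HFD replicate 1, with medians of -0.94 and 0.34. The summed linear level of this list was 142.7 and 82.3 in CD livers against 85.4 and 108.4 in HFD livers, and Acta2, Tagln and Cnn1 were well above background on all of them. Des, on this list, is also expressed by skeletal muscle. Of 8 stellate cell and fibroblast markers, 6 were lower on CD replicate 2, with a median of -0.78 over the list. Lrat (0.55) and Reln (0.42) were higher there. On HFD replicate 2, 3 of the 8 were higher, with a median of -0.07. The summed level of the stellate cell and fibroblast list was 309.1 and 158.5 in CD livers against 230.5 and 237.9 in HFD livers. Of 10 neuron markers, 9 were lower on CD replicate 2 and 9 higher on HFD replicate 2, with medians of -0.66 and 0.52. Their summed level was 32.6 and 21.8 in CD livers against 16.8 and 24.1 in HFD livers.

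Liver cell markers ran opposite to the muscle genes between the CD arrays. All 12 hepatoblast and hepatocyte markers were higher on CD replicate 2, with a median of 0.55, and 5 were higher on HFD replicate 2, with a median of -0.03. Their summed level was 1769.9 and 2764 in CD livers against 2153 and 2194 in HFD livers. Of 9 erythroid markers, 8 were higher on CD replicate 2 and 6 on HFD replicate 2, with medians of 0.49 and 0.09 and summed levels between 1377 and 1967 on the CD arrays and between 1574 and 1710.4 on the HFD arrays. Heart markers, of which 8 of 10 were well above background on all arrays, had medians of -0.24 between the CD arrays and -0.57 between the HFD arrays. Of these 10, 6 were lower on CD replicate 2 and 3 were higher on HFD replicate 2. The summed level of the heart list was 3.62 and 2.82 in CD livers against 4.12 and 3.37 in HFD livers. Among the sarcomere genes above, Actc1, Tnnt2, Myh7 and Myl4 are also made by heart muscle. The summed level of the members was 89.4 and 48.2 in CD livers against 54.6 and 73.3 in HFD livers. The part of these cell types in the values of the muscle genes was not tested.

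**Figure D5:**
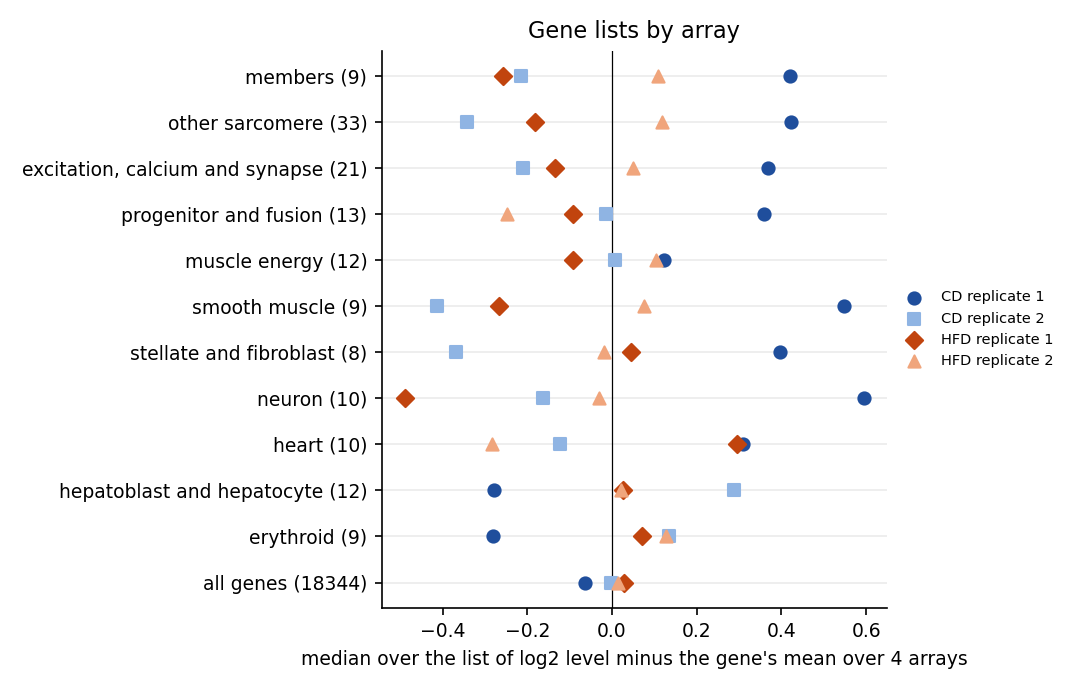
Median over each gene list (number of tested genes in brackets) of the log2 level minus the mean of the gene over the 4 arrays, 1 point per array. For the members, the other sarcomere genes and the smooth muscle markers CD replicate 1 lies farthest to the right and HFD replicate 2 next, while for hepatoblast and hepatocyte markers CD replicate 1 lies farthest to the left.

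The genes most like the members were sought over all 17785 other genes with a measured probe, by the root mean square distance of their 4 centred levels from the mean of the 9 members, which was 0.41 and -0.27 in CD livers against -0.20 and 0.06 in HFD livers. The nearest was Tmem132e (distance 0.01), followed by Crybg2, Myh7b, Serp2, Kbtbd11, 2610528A11Rik, Cacna2d2, Micall1, 8430430B14Rik and Aplnr (0.02). Levels of Tmem132e were -0.29 and -0.97 in CD livers against -0.92 and -0.66 in HFD livers. Myh7b, a sarcomeric myosin heavy chain that is on none of the lists, had -0.46 and -1.10, and -1.03 and -0.81. Over only 4 arrays, such a likeness says nothing of shared function. The distances of the members from their own mean ran from 0.05 for Acta1 to 0.29 for Myh3.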

How the data were processed

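RNA was measured on 4 single-colour arrays of fetal liver, 2 from CD-fed and 2 from HFD-fed dams. The authors hybridised Cy3-labeled cRNA and read the image with Agilent Feature Extraction 11.0.1.1. The deposited files hold, per spot, a background-subtracted intensity that is not scaled between arrays, the median brightness of the spot and of its local background, also as intensity, and flags, deposited as scores of 0 or 1. A table of normalized signal that the authors deposited as well equals the intensity divided by 1 constant per array, within 0.1%. Groups came from the sample labels, and the age came from the methods.

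From the intensities, the log2 was taken, spots of a probe were averaged without outlier-flagged spots, and the 75th percentile of each array was subtracted. A probe was tested if it reached the 20th percentile on all arrays, no array had all its spots flagged and the CV of its log2 signal was at most 50% in at least 1 diet. The diets were compared, as HFD minus CD and without covariates, over 41614 probes by lmFit and eBayes of limma 3.58.1 (R 4.3.3), with Benjamini-Hochberg adjustment. Probes were named through RefSeq, 32994 of 56605 with 1 gene, and the promoter windows are on GRCm38.p6, which is not the build of the array's design. The brightest probe stood for a gene. Figures were drawn with Python 3.11.15 and matplotlib 3.10.9. The number of arrays limits the precision.

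The members, the gene lists, the rule for named genes (every member, the 3 genes of each other muscle list with the highest mean level, and the 10 genes with the nearest pattern) and the tests were chosen with earlier results of these data known. Genes named outside this rule, such as those at an unadjusted p under 0.05, Myh1, Myh2, Myh4 and the progenitor examples, were picked after their values were seen. Single values of 2 listed genes are not reported here. The 11 marker lists were heart, smooth muscle, hepatoblast and hepatocyte, erythroid, stellate and fibroblast, mesothelium, cartilage and tendon, epidermis, trophoblast, neuron, and kidney and gonad. The fit was tested on simulated data.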

Additional observations from a re-analysis of the deposited data

How the results depend on the processing

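No member probe passed an adjusted p of 0.05 in the limma fits or the methods' t-test under any alternative that was run, and the smallest adjusted p of a member probe was 0.237, without CD replicate 1. That fit and the one without CD replicate 2 leave 1 CD array, which is assumed to vary like the HFD arrays. Leaving out each array in turn, the median difference ran from -0.52 to 0.25 over the member probes, from -0.52 to 0.11 over the member genes and from -0.45 to 0.15 over the other muscle genes. Over the same fits, the number of member probes past an unadjusted p of 0.05 and 2-fold ran from 0 to 1 (the dim Myh3 probe, without CD replicate 1), that at an unadjusted p under 0.05 from 0 to 3 (both Myh8 probes and the second Mylpf probe, without CD replicate 2, where 14.1% of all probes passed, as 20.0% did without CD replicate 1), and that of other muscle genes past both from 0 to 3. Members with both HFD arrays below the CD arrays ran from 2 to 9, and above from 0 to 4, against 31.9% and 44.8% of all genes in the fits with the highest counts. The difference between the diets changed sign for Myf6 (-0.54 to 0.10), Acta1 (-0.52 to 0.11), Ckm (-0.57 to 0.54), Myh3 (-0.61 to 0.70), Tnnt3 (-0.45 to 0.38) and Mylpf (-0.31 to 0.47), and kept its sign for Myod1, Myog and Myh8. It also changed sign under quantile normalization for Myh3 (-0.067) and Mylpf (-0.0099), and for Tnnt3 as the mean of its probes (0.027). In all, 82 of 85 values of single genes kept direction and side of the threshold under the alternatives that keep all arrays: quantile normalization, normexp with an offset of 50, the authors' table, no filter on dim probes, a filter on signal well above background, the CV on the linear scale, the replicate block, also with crossed numbers, the methods' t-test and the mean of a gene's probes. This count says little of robustness. A filter, a replicate block or the t-test cannot change a gene's mean difference, so its direction was fixed in advance there. The authors' table differs from the intensities only by 1 constant per array. All reversals fell under quantile normalization and the mean of a gene's probes. By the brightest probes, CD replicate 1 was the highest array for 9 of 9 members with quantile normalization, normexp and the authors' table too. Same-numbered samples had deviations correlated at -0.11 over the tested probes. With 2 arrays per diet this cannot settle whether the numbers pair the arrays, and the main fit assumed no pairing. With the replicate number as a block the median of the member probes stayed at -0.02 and 0 were called. With crossed numbers, added after seeing the data, 0 member probes and 19 of all probes passed after adjustment. Over all probes, counts past an unadjusted p of 0.05 and 2-fold were 118 higher and 219 lower, against 41 and 56 with the methods' t-test, 16 and 44 with normexp, 376 and 479 with no filter on dim probes, 72 and 168 with the filter on signal well above background, 184 and 277 with the block, 184 and 272 with crossed numbers, and 195 to 837 and 398 to 501 with an array left out. Without HFD replicate 1, 26 of all probes passed after adjustment. The causes were not tested. Dim probes, Myf5 above all, limit what can be seen of low transcripts.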

Other observations

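Further lists of markers had these medians for CD replicate 2 minus CD replicate 1 and for HFD replicate 2 minus HFD replicate 1. Cartilage and tendon markers, which share the mesoderm of the body wall and limbs with muscle, had -0.07 and -0.58 (8 genes, of which 5 were lower on CD replicate 2 and 0 were higher on HFD replicate 2). Epidermis markers had -1.44 and -1.37 (5 genes), mesothelium markers -0.58 and -0.21 (5 genes), and kidney and gonad markers -0.75 and 0.86 (8 genes). The contractile muscle genes had -0.80 and 0.39.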
